A study of Mus musculus with 26 samples.

Results

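The transcripts described here are those of 35 mouse genes that bring glucose into the cell, split it to pyruvate, turn pyruvate into lactate, and pass it to the mitochondria. The genes were listed by symbol, and those with a CPM (read counts scaled to library size with TMM factors) above 0.5 in at least 4 of 26 libraries were kept. The rule itself uses no difference between groups, but the list was drawn up with earlier results of these data known. In all, 34 of the 35 passed, of 15402 genes tested and 52962 in the table. The exception was *Slc16a3*, a lactate exporter, which had 0 to 9 counts per library, stood at 0 in 4 libraries, and never exceeded 0.397 CPM. It was left out of every count below.

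The cells were brown preadipocytes of newborn mice with loxP sites in the genes of the insulin receptor (IR) and the IGF1 receptor (IGF1R), immortalized with SV40 T antigen. Adenoviral Cre removed both receptors, which gave the double-knockout (DKO) cells on which all other groups were built. Retroviral vectors then returned a human receptor: full-length IR of the B isoform, K1030R with a dead tyrosine kinase, ∆CT without the C-terminal tail, or JMO, which keeps of the inside of the receptor only the juxtamembrane stretch. Polyadenylated RNA was sequenced after 6 h without serum, either untreated (basal) or after 100 nM insulin for 15 min. DKO cells were basal only, whereas IR, K1030R, ∆CT, and JMO cells were sequenced in both states, in 3 libraries per group and 2 for ∆CT with insulin. Each receptor was carried by 1 line, so the libraries are repeats within a line and not lines made anew, and the labels do not say whether they came from separate cultures.

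Library totals ran from 17228982 to 24694828 counts, and the share of mitochondrial transcripts from 2.97% to 3.85%. Counts assigned to *Insr* averaged 23.8 CPM in DKO cells and 67.7 to 78.4 CPM in the basal receptor lines. Those of *Igf1r*, the other deleted gene, averaged 27.1 CPM in DKO and 30.1 to 35.1 in the basal receptor lines, so its loss is not seen in these counts. Neither gene's counts check the knockout by themselves, because a transcript lacking an exon can still be counted. The paper itself reports that DKO cells expressed neither receptor, as mRNA by qPCR or as protein by immunoblotting. Of the preadipocyte markers, *Pdgfra*, *Pdgfrb*, *Col1a1*, and *Col3a1* were abundant, whereas *Dlk1*, *Ebf2*, *Prdm16*, and *Zfp423* averaged at most 0.285 CPM in any group, so these defining transcripts of the lineage were absent or nearly so. The 13 preadipocyte markers summed to 5257 CPM in DKO and 5360 in JMO cells and to 8448, 9062, and 10788 CPM in K1030R, ∆CT, and IR cells, mostly collagen, and their part in the differences below was not tested. The 8 markers of mature adipocytes summed to at most 4.67 CPM in any group, and *Cidec*, *Lep*, *Myod1*, *Myf5*, and *Adgre1* were at 0. Other markers of muscle, macrophages, and endothelium were detected. Group means were 1.90 to 4.71 CPM for *Des*, 1.80 to 3.32 for *Cd68*, 5.02 to 11.6 for *Lyz2*, and 9.04 to 13.1 for *Pecam1*. The macrophage and leukocyte markers summed to 15.8 CPM in DKO, 13.7 in JMO, 9.20 in IR, 7.98 in K1030R, and 7.75 in ∆CT basal cells. The third ∆CT basal library stood apart in the share of its counts on the described genes, 0.817% against 0.923% and 0.926% in its companions. It was the lowest of the group for 19 of the 34 genes. That count was not particular to it, as the third basal libraries of DKO and IR were the lowest for 23 and 21.

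Glycolysis turns glucose into pyruvate in a chain of enzymes, and most of its control lies at the glucose transporter, at hexokinase, and at phosphofructokinase. Pyruvate is then either reduced to lactate by lactate dehydrogenase or carried into the mitochondrion by the MPC1 and MPC2 carrier and burned by the pyruvate dehydrogenase complex, which the PDK kinases switch off. Insulin is known to move the transporter GLUT4 to the surface of fat and muscle cells and, over hours, to raise the transcripts of several of these enzymes. Many of them are also classical targets of the hypoxia-inducible factors and of MYC.

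The stretches before the start sites of 5 of the genes are shown as examples. The transcripts of *Hk2*, *Pfkm*, *Aldoc*, and *Ldha* differed between lines, and *Pgk1* is one of the abundant lower enzymes. Sequences are from RefSeq (GRCm38.p6), 250 bases before the start and 5′ to 3′. They lie at chr6:82774455-82774704 on the minus strand (*Hk2*), chr15:98092339-98092588 on the plus strand (*Pfkm*), chrX:106186850-106187099 on the plus strand (*Pgk1*), and chr7:46845554-46845803 on the plus strand (*Ldha*, before a start inside the annotated gene). For *Aldoc* only the 145 bases before the annotated gene start are given, chr11:78322823-78322967 on the plus strand. Capitals mark the motif ACGTG and its variant beginning with G (GCGTG), each on either strand, which are cores of sites that hypoxia-inducible factors can bind. The E-box, CACGTG, holds the motif on both strands at once.
Hk2: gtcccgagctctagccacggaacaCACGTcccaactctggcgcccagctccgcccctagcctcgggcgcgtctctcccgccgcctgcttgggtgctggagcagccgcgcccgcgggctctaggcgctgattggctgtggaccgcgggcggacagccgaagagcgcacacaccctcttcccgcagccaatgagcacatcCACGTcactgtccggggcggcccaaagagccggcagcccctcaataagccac
Pfkm: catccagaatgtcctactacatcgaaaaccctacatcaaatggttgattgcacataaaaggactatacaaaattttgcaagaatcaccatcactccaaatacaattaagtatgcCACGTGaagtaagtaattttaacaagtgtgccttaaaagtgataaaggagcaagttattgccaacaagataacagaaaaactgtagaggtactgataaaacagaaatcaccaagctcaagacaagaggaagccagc
Aldoc: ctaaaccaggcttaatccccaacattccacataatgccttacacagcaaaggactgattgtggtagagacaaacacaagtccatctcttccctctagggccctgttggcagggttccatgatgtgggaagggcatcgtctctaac
Pgk1: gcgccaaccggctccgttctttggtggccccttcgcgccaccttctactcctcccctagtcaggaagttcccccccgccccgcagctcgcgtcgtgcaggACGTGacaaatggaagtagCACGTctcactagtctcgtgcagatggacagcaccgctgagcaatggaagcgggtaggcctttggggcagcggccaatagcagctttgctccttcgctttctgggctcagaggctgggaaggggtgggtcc
Ldha: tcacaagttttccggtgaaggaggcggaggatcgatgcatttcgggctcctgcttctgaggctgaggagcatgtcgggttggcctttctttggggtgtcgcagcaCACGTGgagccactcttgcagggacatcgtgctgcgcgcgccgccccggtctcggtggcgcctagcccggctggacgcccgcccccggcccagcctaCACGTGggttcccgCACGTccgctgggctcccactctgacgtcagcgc

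The stretch shown for *Aldoc* holds neither motif, which says only that these letters are not in this window, and the 250 bases counted for it hold 1 GCGTG match beyond the stretch shown. These motifs were counted on both strands in the 250 bases before each RefSeq start. Of the 35 listed genes, 33 had a promoter entry (*Slc2a3* and *Slc2a4* had none). ACGTG was present in the 250 bases of 39.4% of them, against 21.05% of 10829 tested genes and 16.6% of 27025 genes. The values for the variant were 57.6%, 43.9%, and 28.2%, and for the E-box, which always counts in the first as well, 15.2%, 8.08%, and 6.05%. The genes shown do not stand for the whole list. *Ldhb* and *Pfkl*, which also differed between lines, and the lower enzymes *Tpi1*, *Gapdh*, *Eno1*, and *Pkm* held no ACGTG match. *Ldha* held the most ACGTG matches of the listed genes, 5 counting both strands, of which 4 lie in its 2 E-boxes. These are matches of letters and were not tested against any measured binding.

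Per kilobase of the principal transcript, the most abundant of the genes in basal DKO cells were *Gapdh* (1125 CPM per kb), *Pkm* (818), and *Pgk1* (445). The main forms of the other enzymes of the lower pathway and *Ldha* lay between 277 (*Pgam1*) and these, whereas *Eno2* and *Eno3* were at 3.56 and 6.45. The minor isoforms lay far lower on this scale, *Aldoc* at 4.29, *Hk2* at 3.99, and *Slc2a4*, which encodes GLUT4, at 0.139 CPM per kb. The transcripts of *Aldoa*, *Hk1*, and *Ldha* thus stood far above *Aldoc*, *Hk2*, and *Ldhb*. Counts of *Eno1* are uncertain because the near-identical copy *Eno1b* held 91.8% as many, and reads could be split between them, although adding copies to their parent genes changed no call.

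With no minimum fold, most of the genes differed between DKO and receptor lines in the basal state, by small amounts. In IR cells 29 of 34 differed (13 higher, 16 lower), against 49.8%, 25.6% higher and 24.1% lower of all genes tested. In K1030R cells 18 of 34 differed (10 higher, 8 lower) at a background of 41.6%, 21.2% higher and 20.4% lower, in ∆CT cells 21 of 34 differed (14 higher, 7 lower) at 46.3%, 23.4% higher and 22.9% lower, and in JMO cells 20 of 34 differed (7 higher, 13 lower) at 34.3%, 16.9% higher and 17.4% lower. The median log2 fold change of the 34 genes was -0.0086 in JMO, -0.073 in IR, 0.13 in ∆CT, and 0.044 in K1030R cells, where that of all genes lay between 0.0075 and 0.014. These 4 comparisons share the 3 DKO libraries. When a fold of at least 1.5 was required, 3 genes were called in IR (*Aldoc*, *Ldhb*, and *Hk2*, background 6.89%), 2 in ∆CT (*Aldoc* and *Hk2*, 6.29%), 1 in K1030R (*Aldoc*, 5.29%), and none in JMO cells (2.11%), where *Aldoc*, *Ldhb*, and *Hk2* still differed with no minimum fold.

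**Figure D1:**
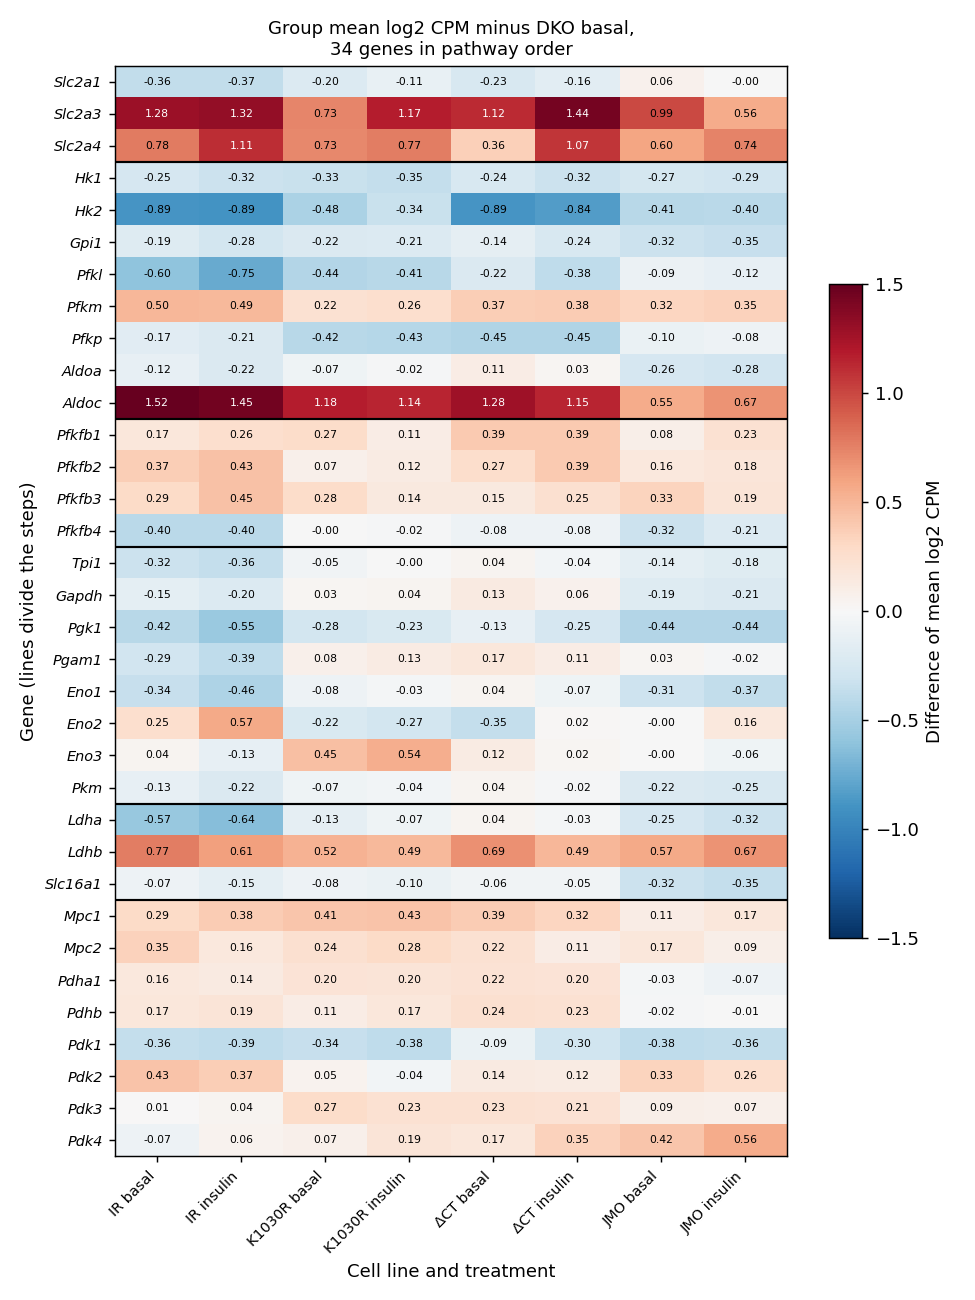
Difference of mean log2 CPM (prior count 2) from basal DKO cells for 34 genes in rows, by step, and 8 groups in columns, with red higher and blue lower and the value in each cell. *Aldoc* is red in all columns, from 0.55 in JMO basal to 1.52 in IR basal cells, and *Hk2* blue in all, down to -0.89. The prior count shrinks the values of *Slc2a3* and *Slc2a4*, which are near the detection limit.

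Among the genes called against DKO in IR, K1030R, and ∆CT cells, the highest log2 fold change was that of *Aldoc* (ENSMUSG00000017390, chr11:78322968-78327781, plus strand), which encodes aldolase C, a form of the enzyme that splits fructose 1,6-bisphosphate and is best known from brain. CPM were 11.7, 12.5, and 11.7 in the 3 DKO libraries and 35.5, 33.6, and 34.2 in the 3 IR libraries. They were 23.8, 30.1, and 27.9 in K1030R, 29.4, 27.4, and 30.5 in ∆CT, and 16.96, 17.5, and 18.3 in JMO libraries. No library of a receptor line overlapped DKO, and none of IR, K1030R, or ∆CT overlapped JMO. *Aldoc* was 2.89-fold higher in IR than in DKO cells (log2 fold change 1.53, SE 0.069, adjusted p = 1.68e-19). In K1030R cells it was 2.29-fold higher (adjusted p = 7.03e-16), in ∆CT 2.44-fold (5.17e-17), and in JMO 1.47-fold (2.66e-07). JMO cells were below IR cells by more than 1.5-fold (log2 fold change -0.97, SE 0.064, adjusted p = 1.02e-14), and K1030R cells below IR to a lesser degree (log2 fold change -0.33, SE 0.062, adjusted p = 6.76e-05). Leaving out any 1 library ended none of these *Aldoc* calls. *Aldoa*, the abundant aldolase A, was lower in JMO (log2 fold change -0.26, SE 0.046, adjusted p = 7.70e-05) and IR cells (log2 fold change -0.12, SE 0.046, adjusted p = 0.0364), the latter not without the first or the second DKO library (adjusted p = 0.0672 and 0.147) or the third IR library (0.218). *Aldoc* CPM went from 2.49% ± 0.0426 of *Aldoa* CPM in DKO (SD, n = 3) to 7.80% ± 0.418 in IR and 4.38% ± 0.349 in JMO cells.

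**Figure D2:**
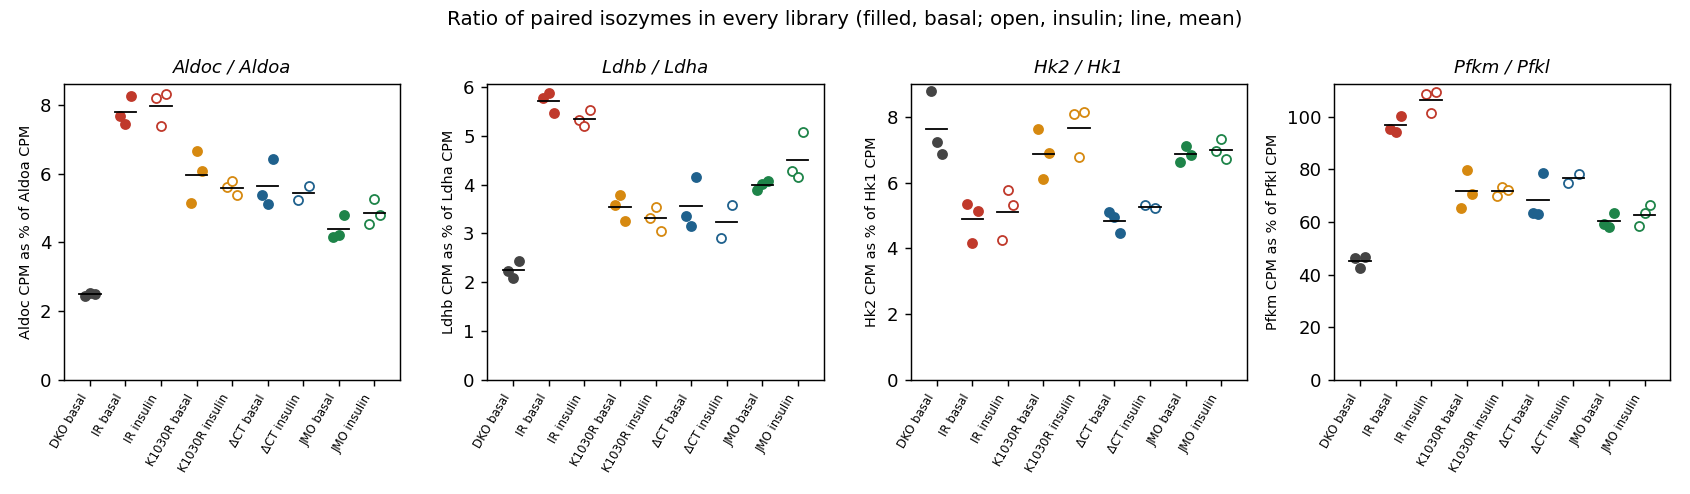
CPM of 1 isozyme as a percentage of that of its partner in every library, by group, with each point a library and each line a group mean. All 3 ratios of *Aldoc*, *Ldhb*, and *Pfkm* to their partners lie above basal DKO in every receptor library, and *Hk2* to *Hk1* is lowest in IR and ∆CT cells.

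Of the listed genes of glucose entry, the most abundant was *Slc2a1* (ENSMUSG00000028645, chr4:119108711-119137983, plus strand), which encodes the widespread transporter GLUT1. CPM were 65.8, 69.5, and 74.2 in the 3 DKO libraries and 56.1, 55.6, and 50.9 in the 3 IR libraries. They were 60.5, 60.3, and 61.2 in K1030R, 62.98, 58.5, and 56.5 in ∆CT, and 72.7, 73.3, and 72.3 in JMO libraries. The libraries of IR, K1030R, and ∆CT cells all lay below those of DKO, and JMO lay among the DKO values. *Slc2a1* was lower in IR (log2 fold change -0.37, SE 0.046, adjusted p = 2.45e-08), ∆CT (log2 -0.24, adjusted p = 4.71e-05), and K1030R cells (log2 -0.21, adjusted p = 3.70e-04), whereas JMO cells had a log2 fold change of 0.056 against DKO (adjusted p = 0.358). The test of the difference itself put JMO above IR (log2 fold change 0.42, SE 0.045, adjusted p = 1.36e-09), K1030R, and ∆CT cells (adjusted p = 1.72e-05 and 2.03e-06).

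The other listed glucose transporters, *Slc2a3* and *Slc2a4*, were barely detected. Transporter genes outside the list, *Slc2a6*, *Slc2a8*, *Slc2a9*, and *Slc2a10*, also passed the filter on low counts. *Slc2a4* (ENSMUSG00000018566, chr11:69942539-69948188, minus strand), the insulin-regulated transporter of fat and muscle, had 0.217, 0.511, and 0.320 CPM in DKO, 0.285, 0.765, and 0.743 in JMO, 0.726, 0.434, and 0.840 in IR, 0.474, 0.350, and 0.569 in ∆CT, and 0.533, 0.604, and 0.724 in K1030R libraries. At such low levels DKO overlapped IR, ∆CT, and JMO but not K1030R libraries. The call in IR against DKO (log2 fold change 0.95, SE 0.39, adjusted p = 0.0432) was lost in DESeq2 (adjusted p = 0.12), in limma voom (0.0507), with no filter on low counts (0.0796), in a fit to only the groups compared (0.071), and without the first DKO library (0.167), the third DKO library (0.119), or the first (0.109) or the third IR library (0.159). *Slc2a3*, for the high-affinity transporter GLUT3, had 0.163, 0.170, and 0.360 CPM in DKO, 0.407, 0.459, and 0.793 in JMO, 0.512, 0.706, and 0.840 in IR, 0.569, 0.649, and 0.569 in ∆CT, and 0.414, 0.705, and 0.259 in K1030R libraries. It was higher in IR (log2 fold change 1.46, SE 0.46, adjusted p = 0.0081) and ∆CT cells (log2 1.27, adjusted p = 0.026), the latter not in DESeq2 (adjusted p = 0.06) nor without the first (0.095) or the second DKO library (0.0868) or the second ∆CT library (0.065).

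Hexokinase traps glucose in the cell as glucose 6-phosphate. *Hk2* (ENSMUSG00000000628, chr6:82725025-82774454, minus strand) encodes the form that insulin raises in muscle and fat, and its log2 fold change was the lowest of the 34 in IR, K1030R, and ∆CT cells. CPM were 24.8, 20.9, and 20.3 in the 3 DKO libraries and 13.1, 10.5, and 11.9 in the 3 IR libraries. They were 17.5, 14.1, and 15.8 in K1030R, 12.8, 11.8, and 10.97 in ∆CT, and 15.9, 17.3, and 16.2 in JMO libraries. Every IR and ∆CT library lay below every K1030R, JMO, and DKO library. In IR cells the level was 0.542 of that in DKO (log2 fold change -0.88, SE 0.094, adjusted p = 1.11e-09) and in ∆CT cells 0.540 (log2 fold change -0.89, SE 0.094, adjusted p = 1.23e-09). K1030R (log2 fold change -0.48, SE 0.092, adjusted p = 6.00e-05) and JMO cells (log2 fold change -0.42, SE 0.090, adjusted p = 4.22e-04) were lower than DKO too, by less. K1030R was above IR (log2 fold change 0.40, SE 0.098, adjusted p = 0.00168), and so was JMO (log2 0.47, adjusted p = 1.57e-04), while ∆CT and IR had a log2 fold change of -0.0045 with an SE of 0.10. The abundant *Hk1* was lower than in DKO in all 4 lines, by log2 fold changes of -0.27 in JMO, -0.25 in IR, -0.24 in ∆CT, and -0.33 in K1030R (highest adjusted p 1.13e-07). *Gpi1*, which makes fructose 6-phosphate, was lower in all 4 as well, at -0.32, -0.19, -0.13, and -0.22 in the same order (highest adjusted p 0.0145, in ∆CT, and 0.149 there without the third ∆CT library).

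Phosphofructokinase, the committed step, differed in the balance of its subunit genes. The liver-type gene *Pfkl* (ENSMUSG00000020277, chr10:77986947-78010083, minus strand) was the most abundant of the 3 per kb in basal DKO cells. CPM were 188, 194, and 186 in the 3 DKO libraries and 129, 127, and 118 in the 3 IR libraries. They were 146, 132, and 138 in K1030R, 171, 169, and 147 in ∆CT, and 177, 184, and 172 in JMO libraries. IR and K1030R libraries lay below all DKO and JMO libraries. *Pfkl* was lower in IR (log2 fold change -0.60, SE 0.051, adjusted p = 1.21e-10), K1030R (log2 -0.44, adjusted p = 4.80e-08), and ∆CT (log2 -0.22, adjusted p = 7.75e-04), and JMO stood at -0.091 (0.174, but 0.0289 in a fit to only the groups compared). The muscle-type *Pfkm* (ENSMUSG00000033065, chr15:98092589-98132451, plus strand) went the other way. CPM were 86.9, 82.6, and 86.8 in the 3 DKO libraries and 123, 120.2, and 118 in the 3 IR libraries. They were 95.5, 106, and 98.1 in K1030R, 108, 107, and 116 in ∆CT, and 104, 107, and 109 in JMO libraries. Each library of the receptor lines was above each of DKO. It was higher in IR (log2 fold change 0.50, SE 0.036, adjusted p = 9.60e-14), ∆CT (log2 0.37, adjusted p = 2.01e-10), JMO (log2 0.32, adjusted p = 1.00e-08), and K1030R cells (log2 0.22, adjusted p = 5.50e-06). *Pfkm* CPM were 45.2% ± 2.20 of *Pfkl* CPM in DKO and 96.7% ± 3.13 in IR cells, with K1030R at 72.00% ± 7.41, ∆CT at 68.4% ± 9.02, and JMO at 60.2% ± 2.82. These ratios are not corrected for length. The principal transcript of *Pfkm* is the shorter (2879 against 3730 bp), so per kb *Pfkm* stood above *Pfkl* in IR cells. The platelet-type *Pfkp* was lower in ∆CT (log2 -0.45, adjusted p = 1.96e-10), K1030R (log2 -0.42, adjusted p = 1.48e-09), and IR (log2 -0.16, adjusted p = 0.00203) and had -0.10 in JMO cells (0.0708).

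The 4 *Pfkfb* genes encode enzymes that make or remove fructose 2,6-bisphosphate, the activator of phosphofructokinase. *Pfkfb2* was higher in IR (28.96 ± 0.584 CPM, SD, n = 3) and ∆CT (27.02 ± 2.70) than in DKO cells (22.4 ± 1.66), with adjusted p of 2.28e-05 and 0.00154. *Pfkfb3*, which favours making it, was higher in IR (log2 0.27, adjusted p = 0.013), K1030R (log2 0.27, adjusted p = 0.0197), and JMO cells (log2 0.32, adjusted p = 0.00659), and each of these calls was lost without the first DKO library (adjusted p = 0.172, 0.217, and 0.0961). That in K1030R was also lost without the first or the second K1030R library (adjusted p = 0.0505 and 0.12) and in a fit to only the groups compared (0.054). *Pfkfb1* was higher in ∆CT (log2 0.38, adjusted p = 0.00161) and K1030R cells (log2 0.26, adjusted p = 0.0346). The *Pfkfb1* call in K1030R was lost in DESeq2 (adjusted p = 0.0946), with no filter on low counts (0.0572), in a fit to only the groups compared (0.0561), and without the first or the third K1030R library (0.108 and 0.105), and without the first DKO library the log2 fold change was 0.16 (adjusted p = 0.259). *Pfkfb4*, the most abundant of them per kb, was lower in IR (log2 -0.40, adjusted p = 8.75e-08) and JMO cells (log2 -0.32, adjusted p = 1.06e-05), and had 0.0013 and -0.076 in K1030R and ∆CT cells.

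**Figure D3:**
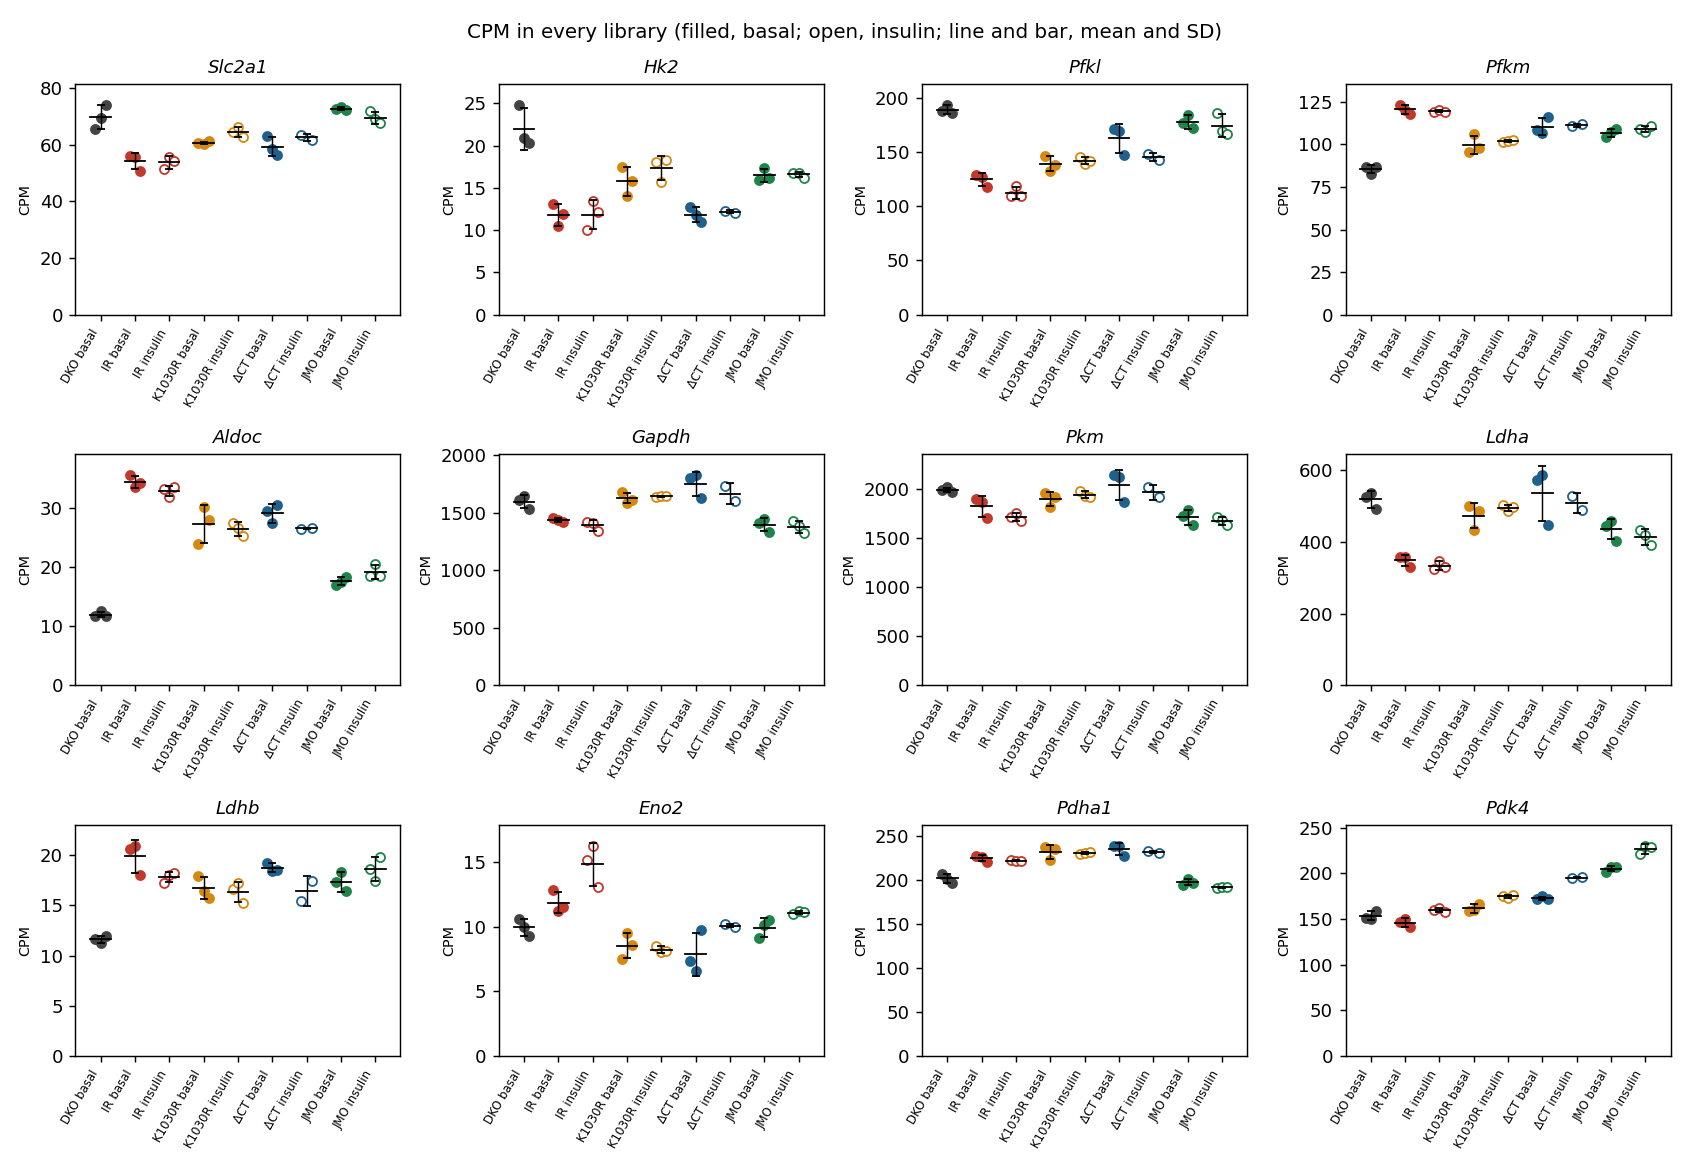
CPM in each of the 26 libraries for 12 genes, 1 panel per gene with the axis from 0, filled points for basal and open points for insulin, with the group mean and SD. *Aldoc*, *Ldhb*, and *Pfkm* are above DKO in every receptor library and *Hk2* is below it, while *Pdk4* is higher with insulin than without in all 4 lines.

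Of the 8 genes that carry triose phosphate to pyruvate (*Tpi1*, *Gapdh*, *Pgk1*, *Pgam1*, *Eno1*, *Eno2*, *Eno3*, and *Pkm*), 1 was higher and 6 lower than DKO in IR cells, where 25.6% of all genes were higher and 24.1% lower. In JMO cells none were higher and 5 lower (16.9% and 17.4% of all genes), in K1030R cells 1 was higher and 1 lower (21.2% and 20.4%), and in ∆CT cells 2 were higher and 1 lower (23.4% and 22.9%). *Gapdh* (ENSMUSG00000057666, chr6:125161715-125166467, minus strand), glyceraldehyde 3-phosphate dehydrogenase, had the highest level per kb of the 34. CPM were 1615, 1646, and 1534 in the 3 DKO libraries and 1456, 1438, and 1420.3 in the 3 IR libraries. They were 1679.5, 1589, and 1616 in K1030R, 1799.8, 1828, and 1630.0 in ∆CT, and 1416, 1443, and 1336 in JMO libraries. IR and JMO libraries lay below all of the other 3 lines. *Gapdh* was lower than in DKO in IR (log2 fold change -0.15, SE 0.038, adjusted p = 0.00127) and JMO cells (log2 fold change -0.19, SE 0.038, adjusted p = 1.71e-04), higher in ∆CT (log2 fold change 0.13, SE 0.038, adjusted p = 0.00467), and at 0.027 in K1030R (0.622). Log2 fold changes against DKO of *Eno1*, the main enolase, were -0.31 in JMO, -0.34 in IR, 0.046 in ∆CT, and -0.075 in K1030R, with calls in IR (4.83e-04) and JMO (0.00209). Those of *Tpi1*, triose phosphate isomerase, were -0.14 in JMO, -0.32 in IR, 0.044 in ∆CT, and -0.050 in K1030R, with the same calls (4.08e-08 and 0.00584). *Pkm* (ENSMUSG00000032294, chr9:59656368-59679375, plus strand), pyruvate kinase, had 1984, 2016, and 1966 CPM in DKO, 1722, 1779.9, and 1628 in JMO, 1902, 1868, and 1703 in IR, 2139.7, 2120.5, and 1865 in ∆CT, and 1962, 1820.2, and 1913 in K1030R libraries. JMO libraries all lay below DKO, and so did IR. *Pkm* was lower in JMO (log2 fold change -0.22, SE 0.045, adjusted p = 3.82e-04) and IR (log2 fold change -0.12, SE 0.045, adjusted p = 0.0226), the latter not without the second DKO (adjusted p = 0.0678) or the third IR library (0.157), and had -0.067 and 0.038 in K1030R and ∆CT cells, of which the first was called in a fit to only the groups compared (0.0473) and the second without the third ∆CT library (0.0395). *Pgam1*, phosphoglycerate mutase, was lower in IR (log2 fold change -0.29, SE 0.060, adjusted p = 3.57e-04) and higher in ∆CT (log2 0.18, adjusted p = 0.0167), a call lost in a fit to only the groups compared (adjusted p = 0.116) and without the third DKO or the first or the second ∆CT library (adjusted p = 0.0716, 0.0829, and 0.112). *Pgk1*, phosphoglycerate kinase, was lower in IR (log2 -0.42, adjusted p = 7.39e-05), JMO (log2 -0.44, adjusted p = 9.89e-05), and K1030R cells (log2 -0.28, adjusted p = 0.0041).

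Summed over 9 abundant enzymes (*Gpi1*, *Aldoa*, *Tpi1*, *Gapdh*, *Pgk1*, *Pgam1*, *Eno1*, *Pkm*, and *Ldha*, a choice made after their levels were seen), basal DKO libraries held 7327, 7432, and 7028 CPM and IR libraries 6347, 6289, and 5881. K1030R libraries held 7172, 6683, and 6961, ∆CT libraries 7879.9, 7969.7, and 6773, and JMO libraries 6282, 6423, and 5905. IR and JMO thus lay below all DKO libraries, and the means (SD, n = 3) were 7262 ± 209 in DKO, 6203 ± 268 in JMO, 6172 ± 254 in IR, 7541 ± 667 in ∆CT, and 6939 ± 245 in K1030R cells. The low ∆CT value is that of the library that stood apart. *Eno2* (ENSMUSG00000004267, chr6:124760053-124769673, minus strand), the neuronal form, had 10.6, 9.95, and 9.29 CPM in DKO, 9.11, 10.2, and 10.5 in JMO, 12.8, 11.2, and 11.5 in IR, 7.30, 6.54, and 9.73 in ∆CT, and 7.52, 9.46, and 8.59 in K1030R libraries. It was above DKO in IR (log2 fold change 0.26, SE 0.10, adjusted p = 0.0362), a call lost in DESeq2 (0.092) and without the first IR library (0.172) or the second or the third DKO library (0.0693 and 0.158), and also without the second or the third insulin-treated JMO library (0.0584 and 0.0565), which enter through the shared spread. In ∆CT cells it was below DKO (log2 fold change -0.34, SE 0.11, adjusted p = 0.0116), though not without the first DKO (0.0583) or the first or the second ∆CT library (0.0621 and 0.118). It was below IR in K1030R (log2 fold change -0.47, SE 0.11, adjusted p = 7.72e-04) and ∆CT (log2 fold change -0.60, SE 0.11, adjusted p = 5.62e-05), which held with each library left out. *Eno3*, the muscle form, was higher than in DKO in K1030R cells (log2 fold change 0.46, SE 0.10, adjusted p = 2.98e-04) and had 0.046 in IR and 0.13 in ∆CT cells.

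**Figure D4:**
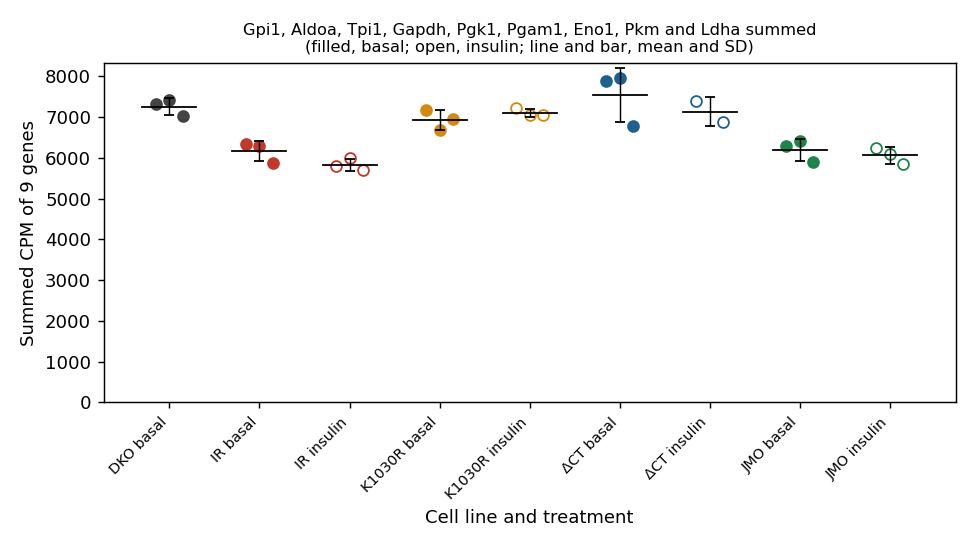
CPM summed over 9 abundant enzymes in each library, by group from an axis at 0, filled for basal and open for insulin, with mean and SD. The 12 IR and JMO libraries lie between 5694 and 6423 CPM, and the lowest of the other 14 is at 6683.

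Lactate dehydrogenase differed in the balance of its A and B genes. *Ldha* (ENSMUSG00000063229, chr7:46841475-46855627, plus strand) makes lactate from pyruvate at high rates. CPM were 526, 538, and 492 in the 3 DKO libraries and 358, 357, and 330.4 in the 3 IR libraries. They were 501, 434, and 486 in K1030R, 572, 586, and 447 in ∆CT, and 445, 458, and 403 in JMO libraries. IR lay below every other line without overlap, and ∆CT spread over the ranges of DKO and JMO. *Ldha* was lower in IR (log2 fold change -0.57, SE 0.083, adjusted p = 1.07e-05) and JMO cells (log2 fold change -0.25, SE 0.082, adjusted p = 0.0233), the latter not without the first (0.0653) or the second DKO library (0.079) or the third JMO library (0.115). K1030R and ∆CT cells had log2 fold changes of -0.13 (adjusted p = 0.225) and 0.046 (0.688), and without the third ∆CT library ∆CT was higher than DKO (0.0454). With no filter on low counts *Ldha* was called lower in K1030R than in DKO too (log2 -0.12, adjusted p = 0.00571). Both lines differed from IR directly (K1030R log2 fold change 0.44, SE 0.083, adjusted p = 4.16e-04, and ∆CT log2 fold change 0.62, SE 0.083, adjusted p = 1.68e-05). *Ldhb* (ENSMUSG00000030246, chr6:142490249-142507957, minus strand), the heart-type subunit, was higher in all 4 lines. CPM were 11.7, 11.3, and 11.9 in the 3 DKO libraries and 20.7, 20.96, and 18.03 in the 3 IR libraries. They were 17.9, 16.4, and 15.8 in K1030R, 19.3, 18.5, and 18.6 in ∆CT, and 17.3, 18.4, and 16.4 in JMO libraries. No DKO library reached any of these. The log2 fold changes were 0.58 in JMO, 0.77 in IR, 0.69 in ∆CT, and 0.52 in K1030R, with adjusted p of 1.80e-07, 9.30e-11, 1.72e-09, and 9.70e-07 in that order. Among the lines, *Ldhb* in JMO was below IR (log2 fold change -0.20, SE 0.070, adjusted p = 0.0226), a call lost in DESeq2 (adjusted p = 0.0791), in a fit to only the groups compared (0.0522), and without the first or the second IR library (0.103 and 0.109) or the first or the third JMO library (0.0604 and 0.118), and turned in sign in the insulin-treated libraries (log2 0.060). *Ldhb* CPM were 2.25% ± 0.167 of *Ldha* CPM in DKO and 5.70% ± 0.218 in IR cells. The transporter *Slc16a1*, which carries lactate and pyruvate across the plasma membrane, was lower in JMO cells (log2 fold change -0.32, SE 0.053, adjusted p = 1.58e-05), also against IR, K1030R, and ∆CT (highest adjusted p 5.30e-04), and values against DKO were -0.056 in ∆CT, -0.077 in K1030R, and -0.073 in IR.

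Of the 8 genes of pyruvate entry and oxidation (*Mpc1*, *Mpc2*, *Pdha1*, *Pdhb*, and *Pdk1* to *Pdk4*), 5 were higher and 1 lower than DKO in IR cells, against 25.6% of all genes higher and 24.1% lower. In ∆CT cells 6 were higher and none lower (23.4% and 22.9% of all genes), in K1030R cells 4 were higher and 1 lower (21.2% and 20.4%), and in JMO cells 3 were higher and 1 lower (16.9% and 17.4%). *Mpc1* and *Mpc2* form the mitochondrial pyruvate carrier. *Mpc1* rose from 21.8 ± 0.678 CPM in DKO to 26.7 ± 1.495 in IR, 29.1 ± 2.81 in K1030R, and 28.6 ± 2.94 in ∆CT (adjusted p = 0.00157, 3.57e-05, and 5.46e-05), and JMO stood at 23.6 ± 2.41 (0.246). *Mpc2* was higher in all 4 lines, by 0.18 in JMO, 0.36 in IR, 0.23 in ∆CT, and 0.24 in K1030R on the log2 scale, that of JMO with an adjusted p of 0.0275 that was 0.0755 in DESeq2, 0.0501 with no filter on low counts, and 0.0541 and 0.0918 without the first and the second JMO library. Without the third DKO library the *Mpc2* calls in JMO (log2 0.11, adjusted p = 0.23) and ∆CT (0.0538) were both lost. *Pdha1*, the catalytic subunit of pyruvate dehydrogenase, was higher in IR (log2 fold change 0.16, SE 0.030, adjusted p = 4.36e-05), K1030R (log2 0.20, adjusted p = 1.17e-06), and ∆CT (log2 0.22, adjusted p = 1.60e-07), and at -0.029 in JMO (0.504). JMO cells were below each of these 3 lines in *Pdha1* (highest adjusted p 4.32e-06). *Pdhb*, the other subunit of that enzyme, was higher in IR (log2 0.18, adjusted p = 0.00269) and ∆CT (log2 0.24, adjusted p = 8.58e-05).

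The PDK kinases, which inhibit pyruvate dehydrogenase, were called in both directions. *Pdk4* (ENSMUSG00000019577, chr6:5483351-5496309, minus strand), the form raised by fasting, was the most abundant of them per kb. CPM were 151, 150.3, and 159 in the 3 DKO libraries and 147, 150.4, and 141 in the 3 IR libraries. They were 158, 159.7, and 167 in K1030R, 172, 175, and 172 in ∆CT, and 202, 207, and 207 in JMO libraries. JMO was above all other lines without overlap (log2 fold change 0.42, SE 0.031, adjusted p = 8.28e-13 against DKO, and log2 fold change 0.49, SE 0.031, adjusted p = 4.09e-15 against IR). ∆CT cells were higher than DKO (log2 0.17, adjusted p = 2.91e-05). IR had -0.073 against DKO with an adjusted p of 0.0534 that fell under 0.05 in DESeq2 (0.022), in limma voom (0.0491), and with RLE scaling (0.0211). *Pdk1*, a hypoxia target, was lower in IR (log2 -0.36, adjusted p = 8.03e-05), K1030R (log2 -0.34, adjusted p = 1.84e-04), and JMO cells (log2 -0.38, adjusted p = 7.30e-05). *Pdk2* was higher in IR (log2 0.43, adjusted p = 4.43e-05) and JMO (log2 0.34, adjusted p = 0.00153), and *Pdk3* in K1030R (log2 0.27, adjusted p = 3.95e-06) and ∆CT (log2 0.23, adjusted p = 4.58e-05).

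Among the receptor lines, the comparison asks whether transcripts differ with the kinase, the C-terminus, or the whole of both lost. Against IR, 19 of 34 differed (12 higher, 7 lower) in K1030R (background 30.2%, 13.9% higher and 16.3% lower), 19 of 34 differed (14 higher, 5 lower) in ∆CT (26.1%, 11.2% higher and 14.8% lower), and 18 of 34 differed (7 higher, 11 lower) in JMO (42.4%, 20.7% higher and 21.8% lower). By step, the 12 genes higher in K1030R than IR were 1 of glucose entry, 2 from hexokinase to aldolase, and 1 *Pfkfb* gene. The rest were 5 from triose phosphate to pyruvate, 1 of lactate formation and export, and 2 of pyruvate entry and oxidation. Among the 12 were *Ldha*, *Pgam1*, *Pfkfb4*, *Eno1*, *Tpi1*, and *Gapdh*, by 0.18 to 0.44 on the log2 scale. In ∆CT against IR the values of these 6 genes ran from 0.29 (*Gapdh*) to 0.62 (*Ldha*), all called, but the comparisons share the 3 IR libraries. K1030R and ∆CT cells differed from each other in 5 genes (4 higher and 1 lower in ∆CT, background 3.43%, 1.49% higher and 1.95% lower), of which *Pfkl*, *Pfkm*, *Aldoa*, and *Pdk1* were the higher ones and *Hk2* the lower. With a minimum fold of 1.5, *Aldoc* was the only gene called among these comparisons between receptor lines, lower in JMO than in IR (background 4.59%), and none were called in K1030R (1.04%) or ∆CT against IR (0.708%), ∆CT against K1030R (0.039%), or JMO against K1030R (3.64%) or ∆CT (4.5%). The count for ∆CT against K1030R with no minimum fold was 0 in a fit to only the groups compared and without the third K1030R library and 10 without the third ∆CT library. JMO cells differed from K1030R in 18 genes (6 higher, 12 lower, 35.4%, 17.4% higher and 18% lower) and from ∆CT in 23 (6 higher, 17 lower, 38.8%, 19.5% higher and 19.3% lower). These share the 3 JMO libraries. Log2 fold changes of JMO against K1030R and against ∆CT were 0.34 and 0.25 for *Pdk4*, 0.32 and 0.35 for *Pfkp*, and -0.64 and -0.73 for *Aldoc*, all called. The call of *Pfkl* in JMO against ∆CT (log2 fold change 0.13, SE 0.050, adjusted p = 0.0476) was lost with RLE scaling (adjusted p = 0.0519), in a fit to only the groups compared (0.097), and without the third ∆CT library (log2 0.061, adjusted p = 0.315).

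The insulin-treated libraries are a separate set in which the same lines can be compared. Of the 19 genes called between basal K1030R and IR cells, 18 were called in the same direction between the insulin-treated libraries. For ∆CT against IR it was 16 of 19, for JMO against IR 14 of 18, for JMO against K1030R 17 of 18, and for JMO against ∆CT 16 of 23. For ∆CT against K1030R it was 1 of 5, *Hk2*. Of all genes, the insulin-treated libraries called 34%, 19.7%, 40.2%, 38.4%, 33.1%, and 5.03% in these 6 comparisons, in the order given. These percentages count calls in either direction, whether or not a gene was called in the basal state. The share of basal calls that recurred was not taken over all genes, so the counts above have no matching background.

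Compared over IR, K1030R, and ∆CT against DKO and JMO, that is, with and without most of the intracellular domain, 20 of 34 genes differed (14 higher, 6 lower, background 52.3%, 26.7% higher and 25.6% lower). *Aldoc* passed the minimum fold (background 5.67%, log2 fold change 1.06, SE 0.045, adjusted p = 1.43e-20). *Hk2* (-0.54), *Pfkl* (-0.38), *Pfkp* (-0.30), and *Slc2a1* (-0.30) had the lowest values among those called. Not all of them divided the lines this way. For *Hk2*, basal K1030R (17.5, 14.1, and 15.8 CPM) and JMO libraries (15.9, 17.3, and 16.2) overlapped. For *Pfkp*, basal IR (53.5, 55.3, and 58.6) and JMO libraries (56.4, 57.9, and 60.7) did. Beyond the 34 genes, of 12 other genes of pyruvate handling 6 were higher and none lower in this comparison, with a median log2 fold change of 0.097 against 0.0054 over all genes. *Gpt2*, which converts pyruvate and alanine into each other in mitochondria, was at 20.4 ± 0.674 CPM in DKO, 30.8 ± 0.691 in JMO, 57.2 ± 1.39 in IR, 48.1 ± 2.21 in ∆CT, and 51.1 ± 1.61 in K1030R cells (log2 fold change 1.05, SE 0.031, adjusted p = 3.67e-25). *Pck2*, mitochondrial phosphoenolpyruvate carboxykinase, went from 101 ± 3.78 in DKO to 201 ± 12.3 in IR and 130.1 ± 1.30 CPM in JMO cells (log2 fold change 0.67, SE 0.025, adjusted p = 5.46e-22). Both passed the minimum fold. Of 15 other glycolytic and transport genes 4 were higher and 5 lower (median 0.025), the largest being the sparse *Hkdc1* (log2 fold change 1.25, SE 0.30, adjusted p = 6.07e-04), followed by *Slc16a7* with no call (log2 -0.45, adjusted p = 0.218). Of 9 pentose phosphate genes 4 were higher and 2 lower (median 0.026), with *Rpia* (log2 fold change 0.30, SE 0.038, adjusted p = 2.17e-08) and *Pgls* (log2 0.29, adjusted p = 2.57e-04) the largest. Of 14 glycogen genes 5 were higher and 3 lower (median 0.018), with *Pygm* (log2 0.40, adjusted p = 0.17) and *Phkb* (log2 0.33, adjusted p = 3.34e-12).

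Of 21 targets of hypoxia-inducible factors outside glycolysis, 8 were higher and 6 lower in the same comparison (median 0.055). Of all genes, 26.7% were higher and 25.6% lower in it. *Car9* (log2 0.80, adjusted p = 0.0116) and *Pgf* (log2 0.74, adjusted p = 4.38e-05) were the largest of these targets. Of 16 regulators of glycolytic genes 5 were higher and 6 lower (median -0.071), 2 of the latter past the minimum fold (5.67% of all genes, either direction). *Myc* was at 56.2 ± 3.24 CPM in DKO, 50.98 ± 1.58 in JMO, 23.7 ± 1.80 in IR, 30.5 ± 4.79 in ∆CT, and 35.3 ± 3.78 in K1030R cells (log2 fold change -0.86, SE 0.058, adjusted p = 2.37e-11). *Arrdc4*, an arrestin-like protein whose transcript glucose raises through MondoA and ChREBP, stood at 17.1 ± 0.576 in DKO and 16.8 ± 0.604 in JMO and at 8.47 ± 0.712, 8.68 ± 1.13, and 7.65 ± 0.857 in IR, K1030R, and ∆CT cells (log2 fold change -1.04, SE 0.063, adjusted p = 5.29e-16). *Hif1a* had a log2 fold change of -0.0066 (adjusted p = 0.818). Whether these regulators act on the 34 genes here was not tested.

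Insulin for 15 min left nearly all of the genes uncalled. *Pdk4* was called, as the only one of the 34, as higher in IR, ∆CT, and JMO cells, so 1 of 34 in each line, where 1.87%, 1.01%, and 0.364% of all genes tested were called. It had 147, 150.4, and 141 CPM in basal and 159.6, 162, and 157 in insulin-treated IR libraries (log2 fold change 0.13, SE 0.032, adjusted p = 0.0217). There were 172, 175, and 172 CPM in basal and 195 and 196 in insulin-treated ∆CT libraries (log2 fold change 0.18, SE 0.035, adjusted p = 0.0026). The values were 202, 207, and 207 CPM in basal and 221, 230.5, and 229 in insulin-treated JMO libraries (log2 fold change 0.14, SE 0.031, adjusted p = 0.0202). In K1030R cells edgeR, DESeq2, and limma voom called none of the 34 (background 0.156%). In edgeR 1 of the 34 had an unadjusted p under 0.05 there, and 937 of all 15402 genes did. This count was 7 in IR (2261 of all genes), 7 in ∆CT (1477), and 2 in JMO cells (1079). For *Pdk4* there were 158, 159.7, and 167 CPM in basal and 175, 174, and 177 in insulin-treated K1030R libraries (log2 fold change 0.11, SE 0.031, adjusted p = 0.214). In all 4 lines the insulin-treated libraries lay above the basal ones without overlap. By edgeR, DESeq2, and limma voom alike, tests of the difference in insulin effect between lines called none of the 34 genes, which does not show that the effects were equal, at backgrounds of 0.37% for K1030R minus IR, 0.00649% for ∆CT minus IR, 0.279% for JMO minus IR, and 0.026% for JMO minus K1030R. The difference for *Pdk4* was small (K1030R minus IR -0.015, SE 0.045). At an unadjusted p under 0.05 these tests gave 5 of the 34 genes for K1030R minus IR, 0 for ∆CT minus IR, 3 for JMO minus IR, and 2 for JMO minus K1030R, where they gave 1210, 565, 1000, and 571 of all 15402.

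These *Pdk4* calls lie near the threshold. In IR cells the adjusted p was 0.0714 without the first basal library and 0.0718 and 0.0723 without the first and second insulin libraries. In JMO cells it was 0.151 and 0.083 without the first and second basal libraries and 0.216 and 0.184 without the second and the third insulin libraries, and in ∆CT cells 0.0611 without the second insulin library. With no filter on low counts the call was lost in IR (0.0728) and JMO cells (0.069), and in a fit to only the groups compared it was lost in IR (0.156) and ∆CT cells (0.0917). Next to it, *Eno2* had log2 fold changes of 0.32 in IR (adjusted p = 0.0917) and 0.36 in ∆CT cells (0.233). The genes best known for a response to insulin, *Hk2* and *Slc2a4*, had log2 fold changes of -0.0038 and 0.34 in IR cells, with SE of 0.10 and 0.33 (adjusted p = 0.996 and 0.714), and for *Slc2a4* a change of this size was not detectable at this depth.

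**Figure D5:**
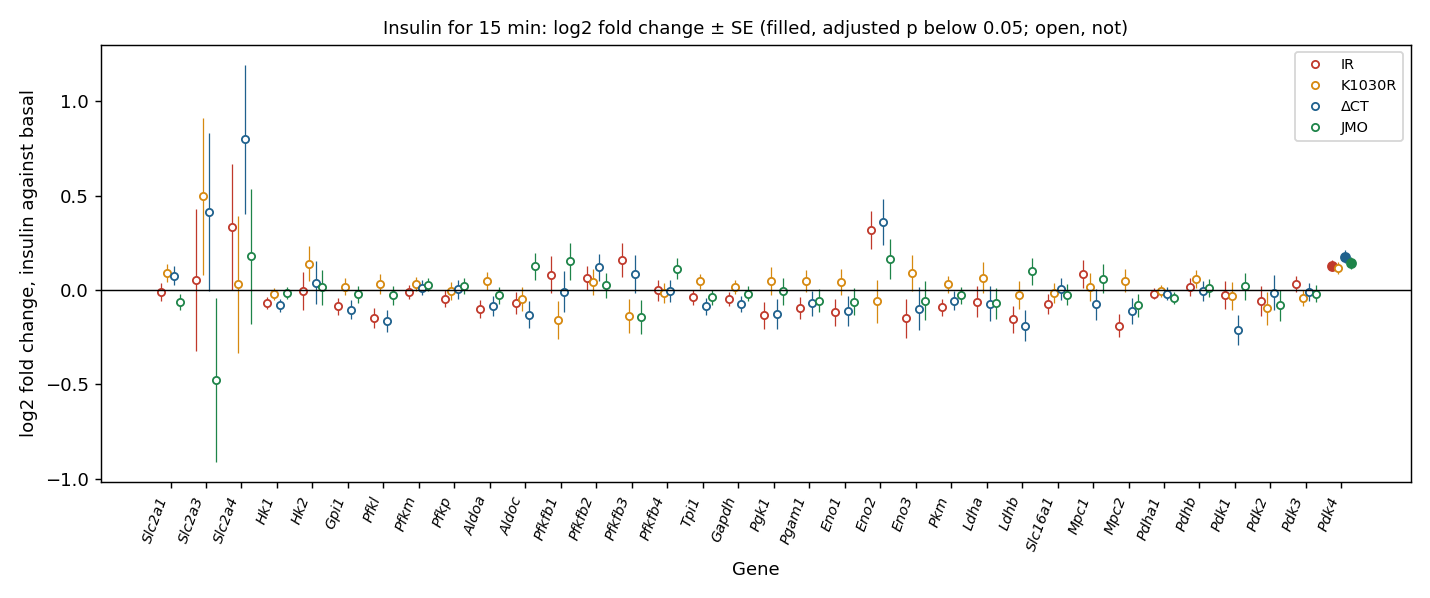
Log2 fold change of insulin against basal for 34 genes in 4 lines, points with bars of 1 SE, filled where the adjusted p is below 0.05. Only *Pdk4* has filled points, at 0.13 in IR, 0.18 in ∆CT, and 0.14 in JMO cells, and the widest bars belong to *Slc2a3* and *Slc2a4*.

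Over the 9 group means of log2 CPM, the genes whose pattern was most like that of *Aldoc* were *Prkg1*, *Pcdhb20*, *Slc1a3*, *Abi3bp*, and *Pid1*, with Pearson's r from 0.993 to 0.997. For *Hk2* they were *Spata5*, *Hoxd8*, *Gm49393*, *Dbr1*, and *Psme3* (r 0.974 to 0.987), and for *Ldha* *A230028O05Rik*, *Anp32e*, *Gatc*, *Mrpl42*, and *Birc5* (r 0.971 to 0.990). The 9 points come from 5 lines, 4 of them in both states, and the genes are the highest of 15402, so the values describe likeness only. On the genome, 7 of the 35 genes lie on chromosome 6, where *Eno2*, *Tpi1*, and *Gapdh* are neighbours with gaps of 40912 and 347418 bp. In IR against DKO they had log2 fold changes of 0.26, -0.32, and -0.15.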

How the data were processed

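RNA from 26 libraries in 9 groups was measured. The authors trimmed reads with fastp, quantified them with kallisto on Ensembl 98 transcripts (GRCm38), and summed them to genes with tximport, and they deposited estimated counts per gene that are not normalised, which were rounded here. Library totals (17228982 to 24694828) limit precision for genes under about 1 CPM. Genes above 0.5 CPM in at least 4 libraries were kept. TMM factors and edgeR's quasi-likelihood test (edgeR 4.0.16, R 4.3.3) were applied to all 26 libraries with 1 mean per group, Benjamini-Hochberg adjustment was made over 15402 genes, and a gene was called at an adjusted p below 0.05. A second test (glmTreat) required a fold above 1.5. Alternatives were RLE scaling, other filters, unrounded counts, a replicate block, added gene copies, DESeq2 1.42.0, limma voom (limma 3.58.1), only the groups compared, and each library left out. The script was tested on simulated data. The genes and lists were chosen with earlier results of these data known. Genes were described in every library where they passed the 1.5-fold test between basal lines or were among the 8 with the largest range of group means, and *Pfkl*, *Slc2a1*, *Slc2a4*, *Hk2*, *Ldha*, *Gapdh*, *Pkm*, and *Pdk4* in any case. *Pfkm* was added after its values were seen. Genes of other lists were named if past 1.5-fold or among the 2 largest, and *Hif1a* was added. Isozyme ratios were taken from CPM within a library. Gene coordinates are those of GENCODE on GRCm38. Libraries of a group were taken as replicates, and p-values measure the spread between them, which may be technical.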

Additional observations from a re-analysis of the deposited data

How the results depend on the processing

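Low counts limit *Slc2a3* and *Slc2a4*, and the third ∆CT basal library and the single line per receptor limit the rest. Requiring a fold above 1.5 left 3 of the 34 genes in IR, 2 in ∆CT, 1 in K1030R, and 0 in JMO cells against DKO, 0 in K1030R and ∆CT and 1 in JMO against IR, 0 between ∆CT and K1030R, 0 in JMO against K1030R or ∆CT, 1 in the comparison over lines with and without the kinase domain, and 0 with insulin in IR, ∆CT, or JMO cells. Without a filter on low counts the count was 9 for ∆CT against K1030R, 4 and 2 with insulin in IR and ∆CT cells, where the 4 in IR did not include *Pdk4*, 0 in JMO cells, and 1 for the insulin effect in K1030R minus IR. Fits to only the groups compared gave 0 for ∆CT against K1030R and 0 with insulin in IR and ∆CT cells. No share over all genes was taken for the unfiltered counts, these fits, or the replicate block and left-out libraries below. Those counts thus have no matching background, and the cause of these shifts was not tested.

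The median correlation of residuals was -0.00111 over 100 same-numbered and -0.00162 over 200 other pairs. By this measure replicate numbers did not pair the libraries. Among the 34 genes, however, replicate 3 was the lowest for 23 in DKO, 21 in IR, 19 in ∆CT, and 17 in JMO basal cells. With insulin it was the lowest for 15 in IR and 20 in JMO cells. In K1030R cells it was the lowest for 8 (basal) and 14 (insulin), and replicate 2 for 19 and 14. The source of this order was not tested. With a replicate block, 2 genes were called with insulin in ∆CT cells, and no other count moved by more than 1.5-fold.

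Leaving out 1 library at a time gave against DKO 18 to 21 genes for JMO, 26 to 30 for IR, 16 to 20 for K1030R, and 19 to 25 for ∆CT. It gave 18 to 20 for K1030R, 14 to 21 for ∆CT, and 13 to 20 for JMO against IR, 0 to 10 for ∆CT against K1030R, 13 to 21 and 20 to 24 for JMO against K1030R and ∆CT, and 20 to 22 with lines joined. With insulin it gave 0 to 4 in IR, where 4 came without the third IR basal library and 0 without the first IR basal or the first or second IR insulin library. The range was 0 to 5 in ∆CT, where 5 came without the third ∆CT basal library and 0 without the second insulin library, 0 to 1 in JMO, and 0 to 0 in K1030R and for the differences between lines.

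Of 229 values of single genes, 227 kept direction and side of the threshold with RLE scaling, 219 with DESeq2, 227 with limma voom, 227 with at least 10 counts, 222 without a filter, 228 with the block, and all 229 with unrounded counts or added copies. Fits to only the groups compared kept 206, lost 21 calls, and gained 2. They lost, among others, *Ldha* in JMO against ∆CT (adjusted p = 0.143) and *Pgk1* in ∆CT against IR (0.0879). In the insulin-treated libraries 82 values between lines kept direction and side and 19 lost their call. Signs turned for *Ldhb* in JMO against IR in the insulin-treated libraries (0.060), the only one of these that had been called. With 1 library left out they also turned for *Eno2* in JMO against DKO (-0.052 to 0.062), *Gapdh* in K1030R against DKO (-0.0023 to 0.049), and *Ldha* in ∆CT against DKO (-0.024 to 0.16).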
